A study of Mus musculus with 7 samples.

Results

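The genes described here encode the Sprouty, Spred and Dusp proteins that switch off the ERK kinase pathway. They are 9 genes, Spred1, Spred2, Spry1, Spry2, Spry4, Dusp1, Dusp4, Dusp5 and Dusp6, of the 21755 gene symbols measured on microarrays of mouse Langerhans cells. Langerhans cells are the dendritic cells of the epidermis, sorted here by flow cytometry from adult wild-type C57:Bl6 mice and pooled. The 4 control arrays came from naive mice and the 3 irradiated arrays from mice that had received 12 Gy of ionizing radiation, and both groups shared strain and genotype. The labels give neither the interval from irradiation to sorting nor the gate. Whether each array had its own pool of mice is also not said, and p-values below therefore reflect only how these arrays vary, in part perhaps for technical reasons. The members were chosen by their control and irradiated levels, with and without irradiated replicate 1, so these levels are given as a description and carry no test. Each gene is represented by the probe set with the highest mean over the 7 arrays. Levels are intensities on a linear scale or their log2, and a difference is irradiated minus control on the log2 scale.

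ERK is activated in sequence by growth factor receptors, the GTPase Ras and the kinases Raf and MEK, and it induces genes that then limit its own activity. Sprouty and Spred proteins act upstream, between the receptor and Raf. The Dusp proteins act at the end of the chain and remove phosphates from the activated kinases. In myeloid cells, to which Langerhans cells belong, receptors for colony-stimulating factors feed into this pathway.

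The library labelled irradiated replicate 1 stood apart from the other arrays before any member was considered. Across the 13053 genes that passed a filter on dim signals, which are not independent replicates, its Pearson correlations with the others were 0.650 to 0.728, against 0.858 or more among the other 6 arrays. All 10 Langerhans cell markers lay below every control in that library, with a summed intensity of 1861. That sum was 34265 to 44106 in controls and 48458 and 49786 in irradiated replicates 2 and 3. Cd207, which encodes langerin, had a log2 intensity of 5.64 there, and 3 of the 10 markers were under the 6.07 log2 that served as the limit for dim genes. All 8 fibroblast markers and 10 of 12 keratinocyte markers lay above every control in that library, with sums of 17226 and 20390 against 1411 to 4980 and 2893 to 12902 in controls. An intensity is never 0 after this normalization, so no marker was at 0. Differences between the groups are given with and without that library. In pooled RNA, fewer cells of a type and less RNA per cell cannot be told apart.

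**Figure D1:**
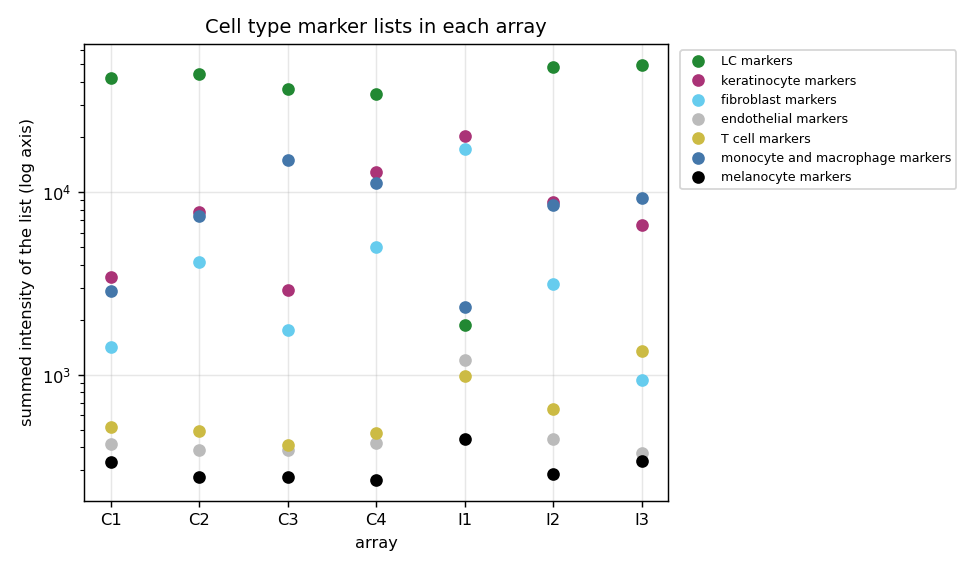
Summed intensity (log axis) of 7 lists of cell type markers in control arrays C1 to C4 and irradiated arrays I1 to I3; each point is 1 list in 1 array. In I1 the Langerhans cell (LC) sum is 1861, below the 34265 to 44106 of the controls, and the fibroblast and keratinocyte sums are the highest of all arrays.

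Promoters of 3 members are shown because Spred1 and Dusp5 had the same pattern over the arrays while Dusp1 varied little. Each stretch runs 5′ to 3′ from 250 bases before to 50 bases after the start of transcription and comes from RefSeq on GRCm38.p6. Of the 9 members, 7 had an entry there and Spry4 and Dusp4 are named only. Several motifs were searched for on both strands. They were the AP-1 site (TGANTCA), the cAMP response element (TGACGTCA) with its short form (TGACG), the ETS motif (CCGGAA), the GC box (GGGCGG), the CArG box bound by SRF and the p53 decamer. Capitals mark every match. They lie at chr2:117120821-117121120 on the plus strand for Spred1, at chr19:53528895-53529194 on the plus strand for Dusp5 and at chr17:26508423-26508722 on the minus strand for Dusp1.
Spred1: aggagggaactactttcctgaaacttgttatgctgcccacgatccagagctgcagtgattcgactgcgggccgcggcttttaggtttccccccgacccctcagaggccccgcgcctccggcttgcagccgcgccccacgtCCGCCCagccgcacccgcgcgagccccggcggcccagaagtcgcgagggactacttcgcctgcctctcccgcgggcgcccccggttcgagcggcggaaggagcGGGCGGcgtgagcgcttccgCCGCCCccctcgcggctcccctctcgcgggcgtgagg
Dusp5: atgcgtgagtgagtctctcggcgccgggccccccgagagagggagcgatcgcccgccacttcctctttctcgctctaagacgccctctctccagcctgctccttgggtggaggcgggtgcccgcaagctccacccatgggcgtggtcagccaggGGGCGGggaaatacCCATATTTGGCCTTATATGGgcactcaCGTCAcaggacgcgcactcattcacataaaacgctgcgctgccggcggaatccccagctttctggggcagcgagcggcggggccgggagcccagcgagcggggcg
Dusp1: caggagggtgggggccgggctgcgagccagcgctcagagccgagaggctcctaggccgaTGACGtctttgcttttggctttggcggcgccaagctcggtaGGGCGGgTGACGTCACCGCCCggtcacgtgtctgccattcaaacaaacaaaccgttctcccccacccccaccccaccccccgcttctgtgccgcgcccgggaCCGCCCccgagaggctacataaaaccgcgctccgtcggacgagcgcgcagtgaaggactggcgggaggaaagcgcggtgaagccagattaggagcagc

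The Dusp5 stretch held 2 adjacent CArG boxes, which began 82 and 72 bases before the start. A CArG box occurred in 1.64% of the 32544 RefSeq promoters of this length. SRF, the factor that binds it, activates many growth factor response genes together with cofactors phosphorylated by ERK. The same stretch held a short cAMP response element (20.9% of all promoters) 55 bases and a GC box 96 bases before the start. The Spred1 stretch held 3 GC boxes and no other match, and a GC box occurred in 35.9% of all promoters. The Dusp1 stretch held a full cAMP response element 143 bases before the start, a motif found in 1.80% of all promoters. It contains 2 overlapping matches of the short form, and another short match, 191 bases before the start, lay outside it. GC boxes flanked the full element and run together with it in the capitals on its 3′ side. A further GC box lay 48 bases before the start. AP-1, ETS and p53 matches were seen in none of the 3 stretches, where they occurred in 7.79%, 15.0% and 8.36% of all promoters. Across the other 4 promoters the only matches were a short cAMP response element and a GC box in Spred2, a GC box in Spry1 and an ETS motif in Spry2, with none in Dusp6. A match is a description of letters and no evidence of binding.

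Spred1 and Dusp5 were the only members whose 2 remaining irradiated arrays both lay above all 4 controls once irradiated replicate 1 was left out. Spred1 encodes a membrane adaptor that carries neurofibromin, a Ras inactivator, to the plasma membrane. Its intensity was 340.6, 418.5, 351.4 and 393.1 in controls 1 to 4 and 168.9, 1526 and 1317 in irradiated replicates 1 to 3. The controls were close together, replicates 2 and 3 were far above them and the library labelled irradiated replicate 1 was below all of them. Without that library the mean was 1.92 log2 or 3.78-fold above the controls. With all 3 arrays the difference was 0.90, from 8.55 ± 0.14 (SD, n = 4) to 9.45 ± 1.78 (SD, n = 3).

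Dusp5 encodes a nuclear phosphatase specific for ERK, and in human cells the gene has been described as a target of p53. Its intensity was 605.0, 605.0, 601.9 and 714.1 in controls and 171.9, 1478 and 1338 in irradiated replicates 1 to 3. Again replicates 2 and 3 lay above every control and replicate 1 below every control. Without replicate 1 the difference was 1.16 log2 or 2.23-fold, and with it 0.15, between means of 9.30 ± 0.12 (SD, n = 4) and 9.45 ± 1.75 (SD, n = 3). The gap between replicate 1 and the mean of replicates 2 and 3 was -3.07 log2 for Spred1 and -3.03 for Dusp5. With replicate 1 kept, the sign for Dusp5 depended on single arrays, since the difference was -0.39 without irradiated replicate 2 and -0.32 without irradiated replicate 3. For Spred1 these values were 0.33 and 0.44.

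Other RNA differed between the same arrays. In irradiated replicates 2 and 3, where Spred1 and Dusp5 were high, 4 of 10 Langerhans cell markers lay above every control and 1, the integrin gene Itgax, below. The keratinocyte sums, 8801 and 6594, were inside the control range there, and the fibroblast sums were 3124, inside it, and 933, under it. The summed T cell markers were 645 and 1345 in those arrays and 987 in replicate 1, against 414 to 517 in controls, and 4 of the 7 lay above every control in both replicates 2 and 3. The part of these shifts in the levels of Spred1 and Dusp5 was not tested. Against only controls 2 and 3, whose labels cite no earlier record as those of all irradiated arrays do not, the differences for replicates 2 and 3 were 1.89 for Spred1 and 1.22 for Dusp5. With replicate 1 included they were 0.86 and 0.21. Of all 13053 tested genes, 578 (4.43%) had replicates 2 and 3 above every control together with replicate 1 below every control, as both genes did.

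**Figure D2:**
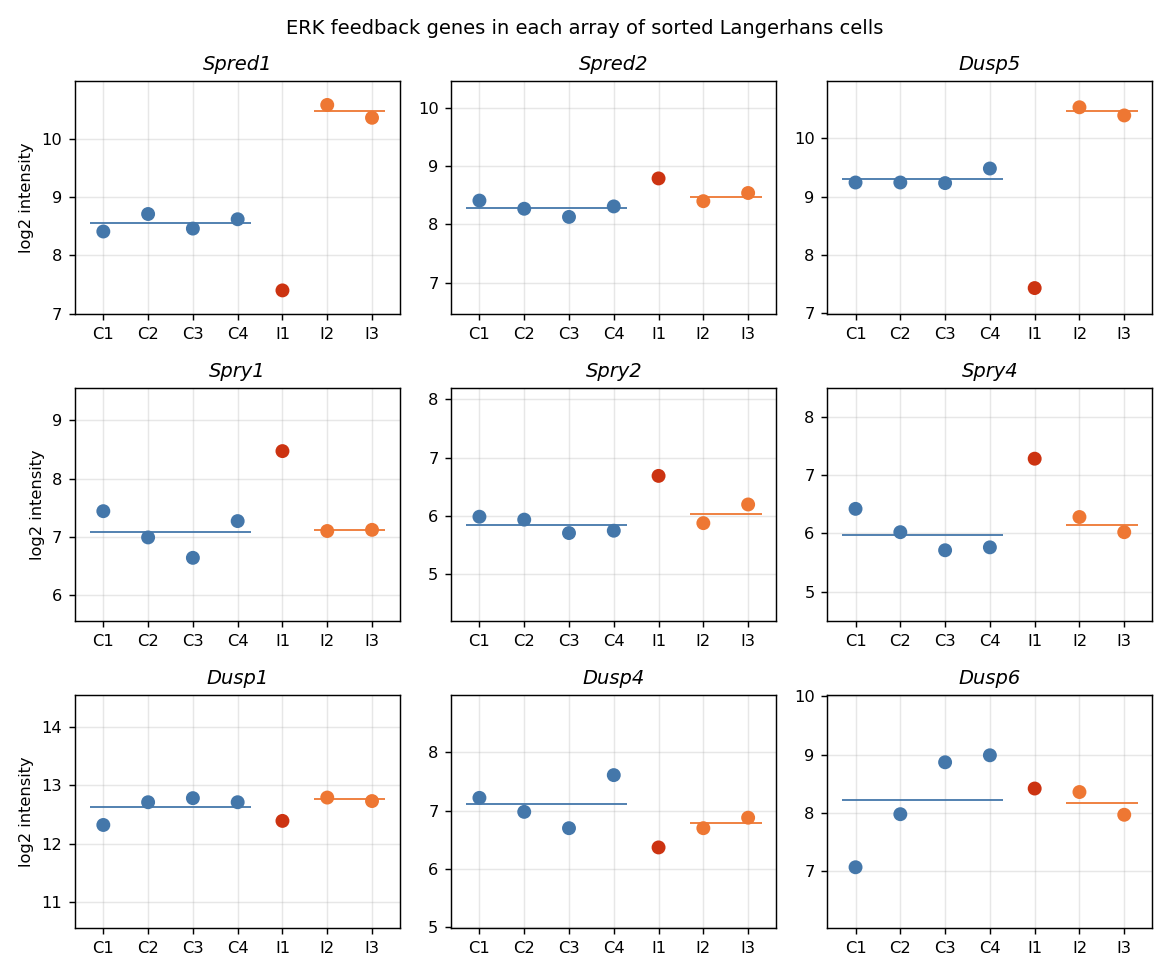
Log2 intensity of each member in control arrays C1 to C4 (blue) and irradiated arrays I1 (red), I2 and I3 (orange), with lines at the mean of the 4 controls and at the mean of I2 and I3; every panel spans 4 log2 units. Spred1 and Dusp5 are high in I2 and I3 and low in I1, while the 3 Sprouty genes are highest in I1.

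The Sprouty genes had another pattern, with their highest level in the library labelled irradiated replicate 1. Sprouty proteins bind Grb2 or Raf and thereby uncouple growth factor receptors from Ras and Raf. Spry1 had intensities of 173.5, 127.0, 99.7 and 153.9 in controls and 354.2, 137.6 and 138.8 in irradiated replicates 1 to 3. Replicate 1 was above all controls, and replicates 2 and 3 lay inside their range. The difference was 0.48 log2 with all arrays and 0.03 without replicate 1.

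Spry4 had intensities of 85.7, 65.0, 52.4 and 54.4 in controls and 155.2, 77.7 and 65.0 in irradiated replicates 1 to 3. Replicate 1 alone was above the controls. Its difference was 0.55 log2 with all arrays and 0.17 without that library. The control mean of Spry4, 5.98 log2, lay under the limit for dim genes and its irradiated mean, 6.53, above it. The gene thus passed the filter through the irradiated arrays, chiefly replicate 1 at 7.28, with replicates 2 and 3 at 6.28 and 6.02. Spry2, which recruits the ubiquitin ligase Cbl, was the single member that did not pass the filter. Its intensities were 63.4, 61.5, 52.2 and 53.8 in controls and 103.2, 58.8 and 73.6 in irradiated replicates 1 to 3, a difference of 0.41 log2 with all arrays and 0.19 without replicate 1. Replicates 1 and 3 lay above every control and replicate 2 among them.

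Spred2, a second Spred adaptor, resembled the Sprouty genes but varied less. Its intensities were 340.5, 308.2, 280.1 and 317.6 in controls and 441.4, 338.7 and 371.8 in irradiated replicates 1 to 3. Replicates 1 and 3 lay above every control, and replicate 2 was just under control 1. The difference was 0.30 log2 with all arrays, between means of 8.28 ± 0.12 (SD, n = 4) and 8.58 ± 0.19 (SD, n = 3), and 0.19 without replicate 1. A dimmer probe set of Spred2 gave 0.49 and 0.39. In replicate 1, where the 3 Sprouty genes and Spred2 were all highest, the fibroblast and keratinocyte markers were also at their highest sums. So were the endothelial markers, at 1197 against 386 to 424 in controls with 5 of 6 above every control, and the melanocyte markers, at 445 against 265 to 334 with 4 of 5 above. The part of these markers in the Sprouty and Spred2 levels was not tested.

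Dusp1 and Dusp4 encode nuclear phosphatases that act on ERK and also on the stress kinases JNK and p38, and Dusp1 is an immediate-early gene. Dusp1 had intensities of 5128, 6695, 7033 and 6681 in controls and 5360, 7091 and 6776 in irradiated replicates 1 to 3. The lowest control and the library labelled irradiated replicate 1 were lower than the other 5 arrays, and the groups overlapped. The difference was 0.01 log2 with all arrays and 0.13 without replicate 1, and its sign turned under 5 of 13 alternative settings.

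Dusp4 was the only member with a lower mean in irradiated cells with all arrays. Its intensities were 149.0, 125.9, 103.7 and 194.8 in controls and 83.0, 103.7 and 117.6 in irradiated replicates 1 to 3. Replicate 1 was the lowest array, replicate 2 equalled the lowest control and replicate 3 lay inside the range of the controls. The difference was -0.47 log2 with all arrays and -0.34 without replicate 1. It was -0.05 when replicates 2 and 3 of both groups were compared, because control replicates 1 and 4 were the highest.

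Dusp6 encodes a cytoplasmic phosphatase specific for ERK and is a common readout of ERK activity. It differed far more among the controls than between the groups. Its intensities were 134.3, 251.9, 467.9 and 509.9 in controls and 341.7, 329.4 and 251.5 in irradiated replicates 1 to 3. All irradiated arrays lay inside the control range, which spanned 1.92 log2. The mean was 8.23 ± 0.90 (SD, n = 4) in controls and 8.25 ± 0.24 (SD, n = 3) in irradiated cells, a difference of 0.02, or -0.06 without replicate 1. Its sign turned under 7 of 13 alternatives. The control SD of Dusp6 was higher than that of 97.4% of tested genes, whereas 21.6% had a smaller control SD than Dusp5 and 27.4% a smaller one than Spred1.

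Cell type markers also differed among the controls. Cd207 had log2 intensities of 11.49, 10.96, 8.85 and 8.91 in controls 1 to 4, so it was lower in the 2 controls where Dusp6 was high. Epcam (9.74, 9.76, 8.74 and 9.06), Ly75 (8.34, 8.63, 7.35 and 7.72) and Mfge8 (12.78, 13.01, 11.33 and 11.65) were lower there too. Not all Langerhans cell markers did so. Ptprc was at 9.21, 9.66, 10.41 and 10.18 and thus higher in those controls, H2-Aa stayed between 12.98 and 13.10, and the summed intensity of the 10 markers was 42279, 44106, 36527 and 34265. The median log2 intensity of 7 monocyte and macrophage markers was 8.41, 9.27, 10.11 and 9.60 in the same order, and higher in those 2 controls. Whether these shifts account for any of the spread in Dusp6 was not tested. In irradiated replicate 2, Dusp6 had a log2 intensity of 8.36 beside 12.35 for Cd207 and a macrophage median of 9.50.

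**Figure D3:**
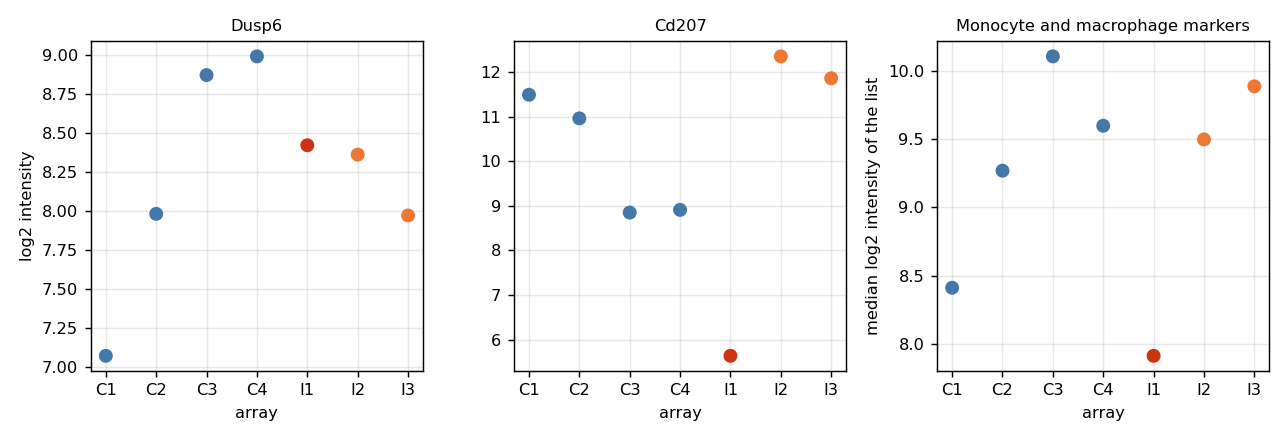
Log2 intensity of Dusp6 and of Cd207 and the median log2 intensity of 7 monocyte and macrophage markers in control arrays C1 to C4 (blue) and irradiated arrays I1 (red), I2 and I3 (orange). In C3 and C4 Dusp6 is at 8.87 and 8.99 while Cd207, 1 of the 10 Langerhans cell markers, is at 8.85 and 8.91. Cd207 is at 11.49 and 10.96 in C1 and C2. Epcam, Ly75 and Mfge8 were also lower in C3 and C4, while other markers such as Ptprc were not.

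Over all 9 members, 8 had a higher and 1 a lower mean in irradiated cells with all arrays, and 7 a higher and 2 a lower mean without replicate 1. The median member difference was 0.30 and 0.17 log2 in these comparisons, beside -0.05 and -0.05 for all tested genes. With each array centred on its median, 6 of 9 had a higher mean, since the differences of Dusp1 and Dusp6 were near 0 and turned. In none of the 9 did the irradiated and control arrays separate completely with all 7 arrays, beside 18.7% of tested genes. Without replicate 1, 2 of 9 had all irradiated arrays above all controls, beside 10.2% of tested genes. Without irradiated replicate 2 instead, 5 members had a higher mean and 2 did not overlap (share of tested genes not computed). These comparisons chose the members, so nothing is read from the counts. The library labelled irradiated replicate 1 lay above every control in 4 members and below every control in 3. Among tested genes it lay above every control in 27.6% and below in 40.4%.

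**Figure D4:**
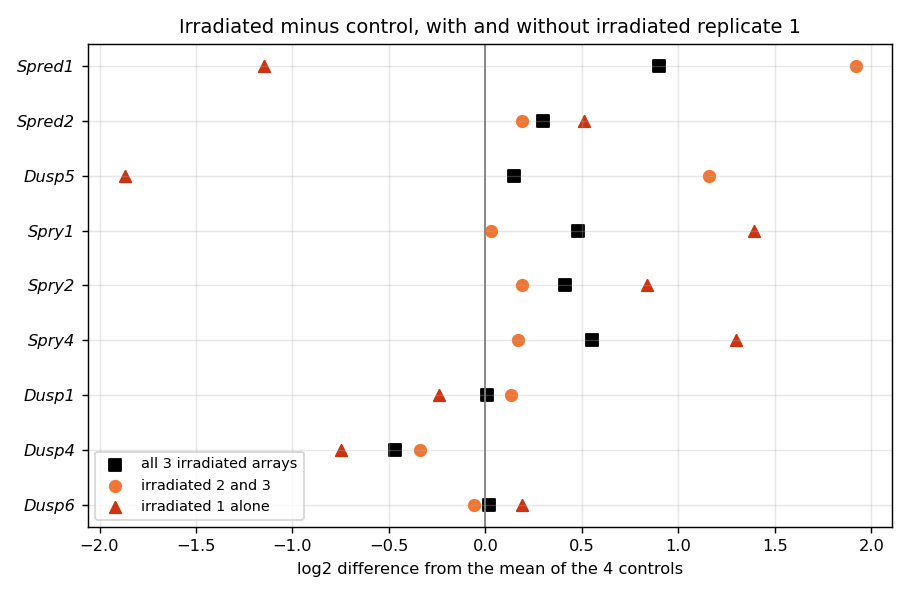
Log2 difference of each member from the mean of the 4 controls, for the mean of all 3 irradiated arrays (black squares), for irradiated replicates 2 and 3 (orange circles) and for irradiated replicate 1 alone (red triangles). For Spred1 replicate 1 lies at -1.15 and the other arrays at 1.92, and for Dusp5 at -1.87 and 1.16.

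A comparison within the controls did not use the contrast that chose the members. An earlier record is cited for controls 1 and 4 and none for controls 2 and 3. With limma, 0 of 8 tested members passed an adjusted p of 0.05 between these pairs, as did 0% of all genes, while 34 of 13053 genes had an unadjusted p under 0.05. The largest member differences were 0.58 log2 (SE 0.22) for Dusp4 and 0.54 (SE 0.20) for Spry1, higher in the cited pair, with limma adjusted p = 1.0 for both. Spry1 was the 1 member with an unadjusted p under 0.05. With 2 arrays a side these values do not show that the pairs were alike.

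The likeness of each member to other genes was described by Pearson's r over the 7 arrays, ranked over 11859 genes (11860 for Spry2) with all arrays. These are the highest of many values, were not computed without replicate 1 and carry no p. The closest to Spred1 were Il1rap (0.993), an interleukin-1 receptor subunit gene, and the kinase gene Dyrk2 (0.992). The closest to Dusp5 were Ube2j2 and Ythdc1, both at 0.992. Spry4 was closest to Sox13 (0.997) and Cldn5 (0.996), Spry1 to Elovl4 (0.994) and Kdelr3 (0.988) and Spry2 to Shd (0.989) and Tspyl5 (0.980). Spred2 was closest to Tox (0.991) and Cd1d2 (0.982), and Dusp1 to Ate1 (0.986) and the interferon-induced gene Rsad2 (0.984). Dusp6 was closest to Itm2b (0.992) and the ubiquitin ligase gene Itch (0.984), and Dusp4, with the lowest values, to Ssrp1 (0.964) and Gorab (0.938). Among the members themselves r was 0.93 for Spred1 with Dusp5 and between 0.87 and 0.94 for pairs among Spred2 and the 3 Sprouty genes. The lowest were -0.75 for Spry1 with Dusp1, -0.74 for Spry4 with Dusp1 and -0.73 for Spry1 with Dusp5. Member values also include replicate 1 and were not computed without it.

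The rest of the pathway was examined with lists that hold no member. Of 127 listed genes 126 were found and 113 passed the filter. With all arrays limma called 0 higher and 1 lower, or 0.885%, beside 0.115% and 1.56% of all tested genes, and 22 of the 113 had an unadjusted p under 0.05. Without replicate 1 it called 4 higher (3.54%) and 1 lower (0.885%), beside 1.58% and 3.06% of all genes, and 29 of the 113 had an unadjusted p under 0.05. The share of all tested genes with an unadjusted limma p under 0.05 was not computed in these comparisons. Nothing is therefore read from the unadjusted counts here or in the single lists below. The median difference over the 113 genes was -0.02 with all arrays and 0.00 without replicate 1.

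Among 10 tested ligand genes, Pdgfb, a chain of platelet-derived growth factor, was the one that fell. Its log2 intensity was 8.46, 8.50, 8.55 and 8.66 in controls and 7.32, 7.25 and 7.56 in irradiated replicates 1 to 3. All irradiated arrays, replicate 1 included, lay below all controls. It fell by 1.16 log2 (SE 0.17, limma adjusted p = 0.0199, n = 4 and 3), and by 1.14 (SE 0.17, adjusted p = 0.0184) without replicate 1. The call was lost without control replicate 2, 3 or 4 (limma adjusted p = 0.091, 0.078 and 0.0891) and without irradiated replicate 2 or 3 (0.119 and 0.0508), with differences of -1.10 to -1.25. Its adjusted p ranged from 0.000951 to 0.197 over the alternatives.

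None of 16 tested receptor genes passed in either comparison. The one with the highest mean was Csf2ra, which encodes a receptor chain for the growth factor GM-CSF, at 11.37 ± 0.48 (SD, n = 4) in controls and 9.65 ± 0.97 (SD, n = 3) in irradiated cells (difference -1.72, SE 0.47, limma adjusted p = 0.114). Without replicate 1 its difference was -1.22 (adjusted p = 0.108). All irradiated arrays of Csf2ra lay below all controls, and 18.7% of tested genes separated in either direction. With array weights, which called 2645 of all genes lower, Csf2ra passed in limma (adjusted p = 0.00841).

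Of 22 tested Ras adaptors and regulators, 2 rose without replicate 1 and none passed with all arrays. Rras2 encodes a Ras-related GTPase, and its log2 intensity was 6.43, 6.49, 6.79 and 6.64 in controls and 6.34, 8.0 and 8.21 in irradiated replicates 1 to 3. As for Spred1, replicates 2 and 3 lay above and replicate 1 below every control. For Rras2, however, replicate 1 was only just under the lowest control (6.34 against 6.43), while for Spred1 it was at 7.40 against 8.41. The difference was 1.52 log2 without replicate 1 (SE 0.15, limma adjusted p = 0.00891) and 0.93 with it (adjusted p = 0.266). Over the alternatives the limma adjusted p of Rras2 ranged from 0.00327 to 0.516. Rasa2 encodes a GTPase-activating protein that inactivates Ras. Its log2 intensity was 8.28, 8.17, 7.49 and 7.77 in controls and 6.59, 9.20 and 9.10 in irradiated replicates 1 to 3, with a difference of 1.23 without replicate 1 (SE 0.25, limma adjusted p = 0.0444) and 0.37 with it (adjusted p = 0.749). Replicates 2 and 3 lay above and replicate 1 below every control. With replicate 1 kept, the difference was -0.08 without irradiated replicate 2 and -0.03 without irradiated replicate 3. Over the alternatives the limma adjusted p of Rasa2 ranged from 0.0293 to 0.98.

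The kinases of the cascade showed no call with all arrays or without replicate 1. Of 12 tested genes for Raf, MEK, ERK and their scaffolds and 7 for kinases activated by ERK, 0 passed in limma in either comparison, and 1 and 2 of them had an unadjusted p under 0.05 with all arrays and 2 and 4 without replicate 1. Mapk3, the gene of ERK1, was at 10.49 ± 0.23 (SD, n = 4) and 9.52 ± 0.32 (SD, n = 3), a difference of -0.97 (SE 0.24, limma adjusted p = 0.0952), and of -0.83 (adjusted p = 0.0848) without replicate 1. Rps6ka1, the gene of an ERK-activated ribosomal S6 kinase, had a difference of -0.78 (SE 0.22, limma adjusted p = 0.119), and again of -0.78 (adjusted p = 0.106) without replicate 1. For both Mapk3 and Rps6ka1 all irradiated arrays lay below all controls, and 18.7% of tested genes separated in either direction. With array weights, which called 2645 of all genes lower, both passed in limma (adjusted p = 0.00633 for Mapk3 and 0.00514 for Rps6ka1).

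Among 21 tested transcription factor genes downstream of ERK, Fosl1, which encodes an AP-1 subunit, passed without replicate 1. Its log2 intensity was 7.72, 8.28, 7.42 and 8.37 in controls and 10.17, 9.38 and 9.26 in irradiated replicates 1 to 3. Unlike Spred1 and Dusp5 it was above all controls in every irradiated array. The difference was 1.37 log2 without replicate 1 (SE 0.30, limma adjusted p = 0.0491) and 1.66 with it (SE 0.33, adjusted p = 0.0571). The adjusted p ranged from 0.00898 to 0.239 over the alternatives. Summed keratinocyte markers were 3409, 7812, 2893 and 12902 in controls 1 to 4 and 20390, 8801 and 6594 in irradiated replicates 1 to 3. The part of these markers in the Fosl1 levels was not tested.

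Of 9 other negative feedback genes none passed, and 3 had an unadjusted p under 0.05 in limma with all arrays and 2 without replicate 1. The one with the highest mean, Errfi1, which inhibits the EGF receptor, had a difference of 0.27 (SE 0.21, limma adjusted p = 0.503), and of 0.12 (adjusted p = 0.79) without replicate 1. Of 16 other dual-specificity phosphatase genes 1 rose without replicate 1. Dusp16 encodes a phosphatase that acts on JNK and p38, and its log2 intensity was 8.77, 8.20, 8.19 and 8.40 in controls and 6.97, 9.63 and 9.73 in irradiated replicates 1 to 3. It had the pattern of Dusp5 over the arrays. The difference was 1.29 log2 without replicate 1 (SE 0.22, limma adjusted p = 0.0267) and 0.39 with it (adjusted p = 0.751). With replicate 1 kept, the difference was -0.04 without irradiated replicate 2 and -0.09 without irradiated replicate 3. Over the alternatives the limma adjusted p of Dusp16 ranged from 0.0183 to 0.979. With replicates 2 and 3 of each group, neither Dusp16 (1.48, adjusted p = 0.0775), Rras2 (1.47, adjusted p = 0.0775), Rasa2 (1.32, adjusted p = 0.116) nor Fosl1 (1.47, adjusted p = 0.124) passed in limma, nor did Pdgfb (-1.12, adjusted p = 0.0934), and the differences were of similar size. Summed Langerhans cell markers were 1861 in irradiated replicate 1 and 48458 and 49786 in replicates 2 and 3, against 34265 to 44106 in controls. The part of such marker shifts in the levels of Dusp16, Rras2, Rasa2 and Pdgfb was not tested.

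**Figure D5:**
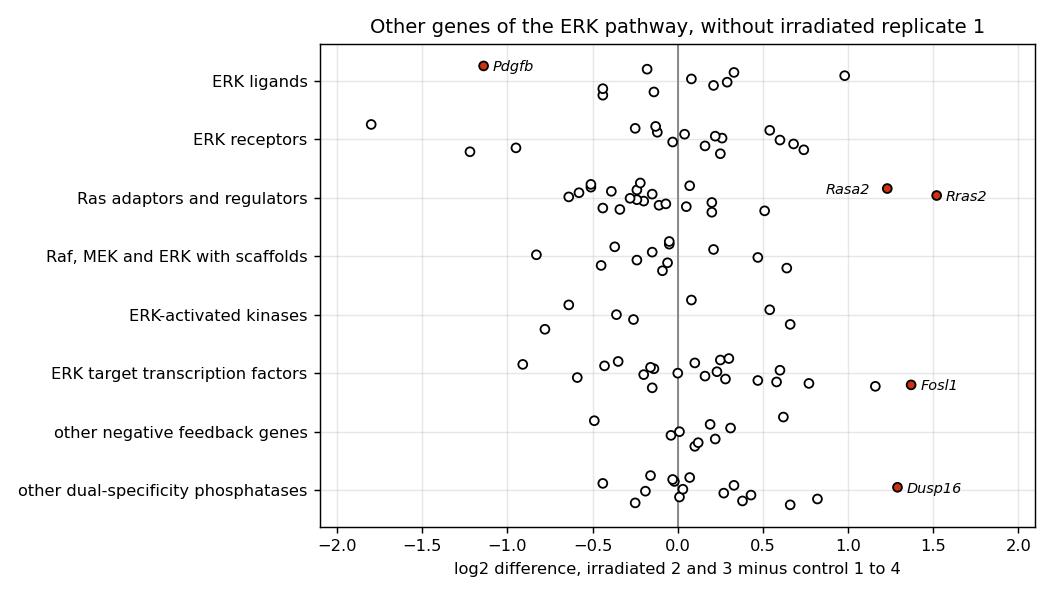
Log2 difference, irradiated replicates 2 and 3 minus the 4 controls, of the tested genes of 8 ERK pathway lists that hold no member; each circle is 1 gene, and filled circles have a limma adjusted p under 0.05. The named genes are the 5 that passed, Pdgfb at -1.14 and Rasa2, Dusp16, Fosl1 and Rras2 between 1.23 and 1.52.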

How the data were processed

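The deposited values are intensities, 1 for each of 24922 probe sets on each of 7 arrays, deposited by the authors on a linear scale after RMA (robust multi-array average), which the submitters' processing notes name. Array medians were 80.18 to 88.24. No source used here gives the array design or the RMA version. Both deposited tables held equal values in 174454 of 174454 cells (tolerance 1e-09). The number of arrays, 7, limits the precision.

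From these, log2 was taken, the probe set with the highest mean was kept per symbol, and the 40% of symbols with the lowest means (under 6.07 log2) were left out. Tests used limma 3.58.1 (R 4.3.3) with a variance trend, and p-values were adjusted by Benjamini-Hochberg over 13053 genes at a threshold of 0.05. The code was also run on simulated data, with normal noise at the means and spread of these data. Members, gene lists and rules were chosen with earlier results of these data known. All 9 members were named. From each pathway list, the genes past the threshold with or without irradiated replicate 1 were named (at most 4), or else the tested gene with the highest mean, and for each member the 2 genes with the highest r, antigen receptor segments and unnamed gene models excepted. Alternatives were other filters, scalings, probe set rules, variance models, array weights, the replicate number as a block, the controls that cite no earlier record, and each array left out. The comparison of replicates 2 and 3 of each group was chosen after seeing the data. Of the genes on the lists, Lamtor2 was not analysed here. Hras, Lamtor3, Adgre1 and Pmel were found under older symbols.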

Additional observations from a re-analysis of the deposited data

Results flagged for a closer look

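Control groups of 18 genes (the 9 members and 9 named pathway genes) were searched for an array far from the others by Dixon's test, and 2 were found. Chance alone gives about 5% of such groups. Dusp1 was at 12.32 log2 in control replicate 1, below the 12.71, 12.78 and 12.71 of the other controls. Dusp5 was at 9.48 log2 in control replicate 4, above the 9.24, 9.24 and 9.23 of the others, so its other 3 controls were nearly equal. Controls 1 and 2 were exactly tied at an intensity of 605.0. Tied values occurred in 28.0% of probe sets, and a tie narrows the spread that this search uses.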

How the results depend on the processing

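Single libraries decided most counts, and the causes were not tested. Leaving out each array in turn, the members with a higher irradiated mean numbered 5 to 8, those whose groups did not overlap 0 to 2, pathway genes called higher 0 to 4 and lower 0 to 1, and all genes called higher 0 to 206 and lower 2 to 399. Both highest counts of all genes came without irradiated replicate 1. Against controls that cite no earlier record, 2 members did not overlap, 0 pathway genes were lower, and 0 and 1 of all genes were higher and lower. With replicates 2 and 3 of each group, 4 members did not overlap, 0 pathway genes were lower, and 1 and 0 of all genes were called. Median centring left 1 member without overlap. The share of all tested genes without overlap was computed only with all arrays and, for higher genes, without irradiated replicate 1. Nothing is therefore read from the counts of members without overlap in the other settings. With array weights, 10 and 20 pathway genes and 831 and 2645 of all genes were called higher and lower. With a replicate block, 0 pathway genes were lower and 0 and 0 of all genes were called. Deviations of equally numbered arrays correlated at 0.021, -0.055 and 0.168. With so few arrays, and with the outlying replicate 1 in the irradiated mean, these values cannot settle whether the numbers pair the samples. With the lowest 60% left out, and without trend, 1 pathway gene was higher. Without a filter 130 of all genes were lower. The count of members by record status was 0 in all 3 alternatives. No alternative turned the sign of Spred1, Spred2, Spry1, Spry2, Spry4 or Dusp4, and 2 of 13, without irradiated replicate 2 or 3, turned Dusp5. Signal near background limits Spry2 and Spry4.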
